A study of Mus musculus with 24 samples.

Results

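The strain difference in liver open chromatin after diet reversal was described from a pair of peak lists, one of C57BL/6J and one of A/J mice. Peaks of both lists on chromosomes 1 to 19 were merged into one region wherever they shared at least 1 bp. This gave 41224 regions, of which 6879 held a C57BL/6J peak only, 10130 held an A/J peak only and 24215 held peaks of both strains. The 6 lists of the whole series, which cover 2 strains on 3 diets, merged into 49364 regions on the same chromosomes.

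Liver was taken from mice of the inbred strains C57BL/6J and A/J. The labels name no allele or agent beyond strain and diet, and age and sex are not given in the sources used here. Both Reversal groups had 8 weeks on high fat diet before 8 weeks on control diet, per the treatment protocol, while a diet tag on the same samples gives 16 weeks for the control diet. Each strain had 2 FAIRE-seq libraries on Reversal, and nothing in the labels ties them to separate animals. The authors deposited 1 list per strain and diet, so the 2 libraries cannot be set against each other. No comparison below has a replicate check, and no test was run. Intervals are 95% Wilson intervals, which cover counting error over regions only. The Control groups of both strains had 16 weeks of control diet, and the HF groups had 16 weeks of high fat diet. The Control and HF lists of both strains, which the choice of regions did not use, serve as further readings of the same regions.

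FAIRE-seq crosslinks chromatin with formaldehyde, shears it and sequences the DNA that stays in the aqueous phase after phenol extraction. That DNA is poor in nucleosomes and comes mainly from promoters, enhancers and other regulatory elements. In liver such elements are bound by hepatocyte factors and respond to feeding and fat. C57BL/6J gains weight readily on high fat diet and A/J is known as more resistant, and C57BL/6J is also the strain from which the mouse reference assembly was made. A strain difference in open chromatin and a strain difference in how reads map to the mm9 assembly cannot be told apart in peak lists.

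The A/J list held 34741 peaks on chromosomes 1 to 19 and covered 21.4 Mb, against 31669 peaks and 19.1 Mb in the C57BL/6J list. Regions with an A/J peak only made up 24.6% of all merged regions, and regions with a C57BL/6J peak only made up 16.7%. The shared regions made up 58.7% (58.3 to 59.2) of the regions and 75.2% of the covered bases. Of the 31094 regions with a C57BL/6J peak, 22.1% (21.7 to 22.6) lacked an A/J peak. Of the 34345 regions with an A/J peak, 29.5% (29.0 to 29.98) lacked a C57BL/6J peak. Among the strongest 20000 peaks of each list the shares were 18.9% (18.3 to 19.4) for C57BL/6J and 19.4% (18.9 to 19.9) for A/J, with overlapping intervals. Lists of equal length bring both shares together by construction, so this cut cannot show whether the A/J excess is more than list length. By the same merging the shared regions made up 49.7% (49.3 to 50.2) on Control and 65.0% (64.5 to 65.5) on HF, so Reversal lay between them. The lists also differ in length between diets. C57BL/6J and A/J had 33948 and 35811 peaks on Control, and 32116 and 33216 on HF. The part of list length in the order of the diets was not tested.

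A peak reached a list only above a lowest signal, which was 0.0965 in the C57BL/6J list and 0.125 in the A/J list, on the authors' own scale, which is not given. By the highest serial number listed on each chromosome, the lists hold 18.6% of 176298 numbered C57BL/6J peaks and 30.4% of 116089 numbered A/J peaks. Higher numbers that were never listed would not be seen. The lists thus hold different shares of the numbered peaks, and whether they are cut at a like level is not known. Chromatin outside a list may still have been accessible. Signals were used only to rank peaks within a list, and a rank is given as a percent of the list's length, with low percentages for strong peaks.

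Strain-only regions came mostly from the weaker part of each list. The median rank was 80.0% (quartiles 66.0 and 90.7) for C57BL/6J-only peaks and 78.0% (63.6 and 89.5) for A/J-only peaks. Shared regions had a median rank of 39.2% in the C57BL/6J list and 35.4% in the A/J list. Only 18 C57BL/6J-only and 13 A/J-only regions lay in the strongest 20% of their list. The strongest 50% held 587 C57BL/6J-only and 963 A/J-only regions. Among all regions with a peak in that stronger part, these were 3.75% (3.46 to 4.06) in C57BL/6J and 5.57% (5.24 to 5.92) in A/J.

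The share without a peak of the other strain climbed with each 10% of the list. In the strongest 10% it was 0.0632% in C57BL/6J, 2 of 3164 regions, and 0.0864% in A/J, 3 of 3474 regions. From 40 to 50% of the list it was 11.2% (10.2 to 12.4) in C57BL/6J and 19.04% (17.8 to 20.4) in A/J. In the weakest 10% it was 59.97% (58.2 to 61.7) for C57BL/6J and 71.3% (69.7 to 72.8) for A/J. The A/J share was the higher one in each 10% bin from 30 to 100%. From 20 to 30% the order was the other way round, at 2.18% (1.72 to 2.75) in C57BL/6J and 1.24% (0.924 to 1.67) in A/J. It was also the other way round from 10 to 20%, though with overlapping intervals. There the share was 0.507% (0.312 to 0.822) in C57BL/6J and 0.289% (0.157 to 0.531) in A/J.

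**Figure D1:**
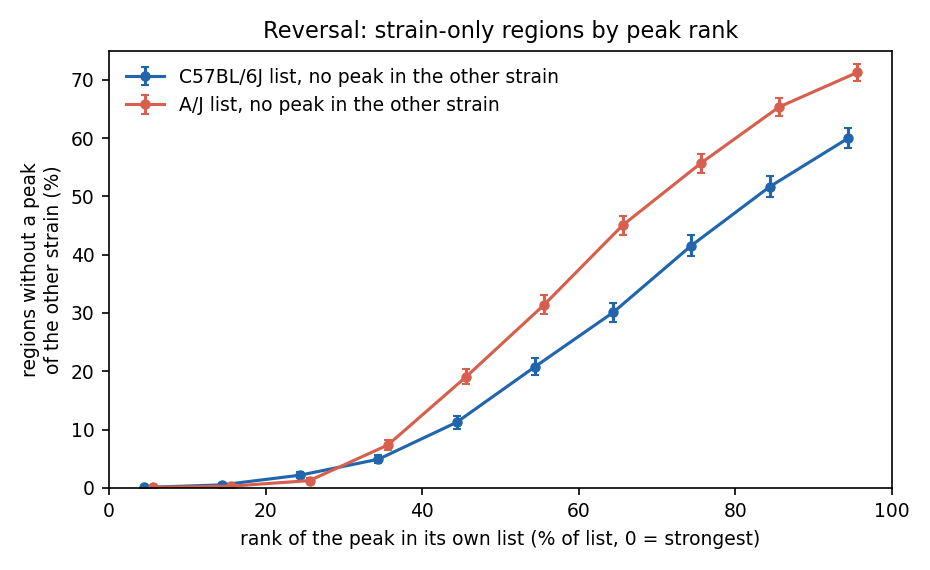
Share of regions without a peak of the other strain (vertical axis, percent) against the rank of the strain's own peak in 10% bins of its Reversal list (horizontal axis, percent, strongest at the left), with 95% Wilson intervals for counting error. Both curves start near 0 and climb, to 59.97% for C57BL/6J and 71.3% for A/J.

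Strain-only regions were narrow. The median width was 319 bp (quartiles 278 and 394) for C57BL/6J only and 313 bp (265 and 400) for A/J only, against 658 bp (424 and 999) for shared regions. Widths over 1000 bp were found in 1.57% of C57BL/6J-only, 0.671% of A/J-only and 24.9% of shared regions. Weak peaks are narrow in general, and a merged region spans the peaks of both lists, so the strain's own peaks were also compared at matched rank.

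At matched rank the difference in width remained among strong peaks of both lists and was smaller among weak ones. From 20 to 40% of the C57BL/6J list, the median width was 394 bp (374 and 422) over 221 strain-only peaks and 632 bp (439 and 882) over 5745 shared peaks. The same bin of the A/J list gave 445 bp (379 and 588) over 297 strain-only peaks and 632 bp (454 and 892) over 6362 shared peaks. In the weakest 20% of the C57BL/6J list the order was the other way round, with 295 bp for strain-only and 277 bp for shared peaks. Strain-only peaks of the A/J list stayed the narrower ones. Their median was 312 bp against 365 bp for shared peaks from 60 to 80%, and 278 bp against 332 bp in the weakest 20%. The 18 strongest C57BL/6J-only peaks had a median width of 424 bp with close quartiles of 413 and 436, although 1 of them spanned 978 bp. Shared C57BL/6J peaks in that strongest 20% had a median of 933 bp.

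C57BL/6J-only and A/J-only regions differed in where they lay. The middle of a C57BL/6J-only region was a median of 30.1 kb (quartiles 6.13 and 169) from the middle of the nearest shared region. For A/J-only regions the median was 8.93 kb (2.66 and 27.3), close to the 9.26 kb (2.72 and 29.1) between a shared region and its nearest shared neighbour. Distances over 100 kb were found for 2210 C57BL/6J-only regions, 32.1% (31.0 to 33.2), but for 6.59% (6.13 to 7.09) of A/J-only and 7.02% (6.70 to 7.35) of shared regions. C57BL/6J-only regions were 48.3% of all 4577 regions at such a distance, against 16.7% of all regions. The distance was not alike over the class. Its median was 66.9 kb for C57BL/6J-only regions with an A/J peak on HF but not on Control. For those with an A/J peak on both Control and HF it was 9.39 kb. For those in the C57BL/6J Reversal list and no other list it was 10.2 kb.

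The distance grew with strength in C57BL/6J and not in A/J. The median was 21.7 kb for C57BL/6J-only peaks in the weakest 20% of the list, 58.8 kb from 40 to 60% and 117 kb from 20 to 40%. The 18 strongest lay at a median of 204 kb. A/J-only medians stayed between 8.08 and 9.62 kb from 20 to 100% of the list, and the 13 strongest lay at 12.7 kb. Shared regions binned by C57BL/6J rank had medians between 7.24 and 13.8 kb.

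**Figure D2:**
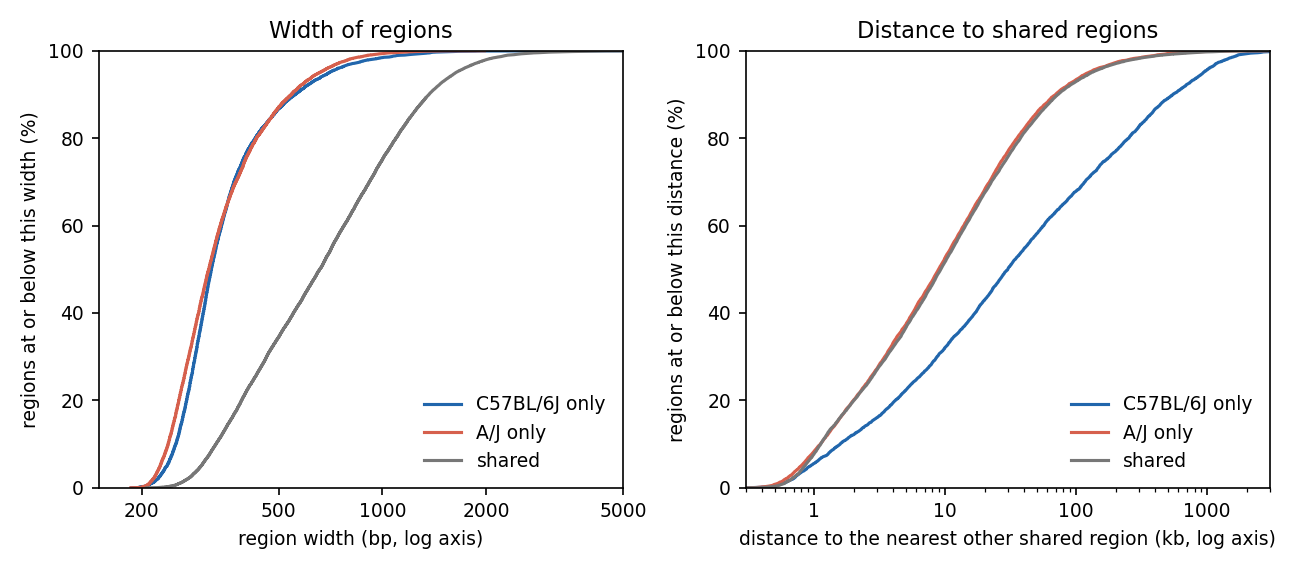
Cumulative share of regions (vertical axes, percent) by region width in bp (left, log axis) and by distance in kb to the nearest other shared region (right, log axis), for C57BL/6J-only, A/J-only and shared regions. Both strain-only classes are narrower than shared regions, with medians of 319, 313 and 658 bp, and only the C57BL/6J-only curve is shifted to long distances, with a median of 30.1 kb.

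The Control and HF lists of the same strain repeated most strain-only regions. Of the C57BL/6J-only regions, 83.1% (82.2 to 84.0) held a C57BL/6J peak on Control and 75.4% (74.4 to 76.4) on HF. Of the A/J-only regions, 83.4% (82.7 to 84.1) held an A/J peak on Control and 60.4% (59.4 to 61.3) on HF. Shared regions held a C57BL/6J peak in 89.1% of cases on Control and 93.7% on HF, and an A/J peak in 98.8% and 97.6%.

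The other strain's lists on other diets held part of these regions too. An A/J peak was present at 15.0% (14.2 to 15.9) of C57BL/6J-only regions on Control and at 28.0% (26.9 to 29.0) on HF. A C57BL/6J peak was present at 6.54% (6.08 to 7.04) of A/J-only regions on Control and at 13.8% (13.2 to 14.5) on HF. In both directions the HF list of the other strain held more of the regions than its Control list did. With both diets counted, 2246 C57BL/6J-only regions, 32.7% (31.5 to 33.8), held an A/J peak on Control or HF. Among A/J-only regions 1760, 17.4% (16.7 to 18.1), held a C57BL/6J peak on Control or HF.

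Fewer than 50% of the strain-only regions differed between the strains on every diet. Regions with a peak of the same strain on all 3 diets and none of the other strain on any diet numbered 3042 in C57BL/6J, 44.2% (43.0 to 45.4), and 4330 in A/J, 42.7% (41.8 to 43.7). Their median ranks, 76.5% and 68.4%, were stronger than those of their classes. Strain-only regions listed on all 3 diets of their strain, whatever the other strain held, had stronger median ranks of 73.0% and 67.3%. Those with no peak of the other strain on any diet were weaker than their classes, at 83.1% and 79.6%. Regions found in the Reversal list of their strain and in none of the 5 other lists numbered 553 in C57BL/6J, 8.04% (7.42 to 8.70), and 1288 in A/J, 12.7% (12.1 to 13.4). These were the weakest, with median ranks of 93.1% and 92.4%. A/J regions listed on Reversal and Control but in no other list were common, at 2485 (24.5%, 23.7 to 25.4). The like pattern in C57BL/6J had 691 regions (10.05%, 9.36 to 10.8).

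**Figure D3:**
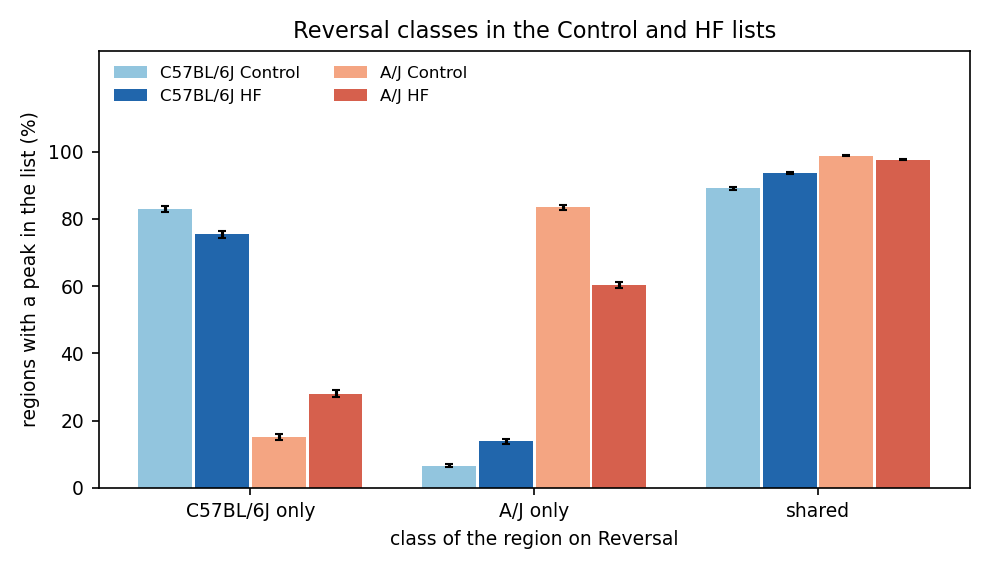
Share of C57BL/6J-only, A/J-only and shared regions of Reversal (horizontal axis) that held a peak in the Control and HF lists of each strain (vertical axis, percent, bars with 95% Wilson intervals for counting error). Bars of the other strain reach 15.0% and 28.0% for C57BL/6J-only and 6.54% and 13.8% for A/J-only regions, with HF above Control in both.

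Strong strain-only peaks were the ones most often held by the other strain's HF list. Of the 221 C57BL/6J-only regions ranked from 20 to 40%, 147 (66.5%) held an A/J peak on HF and 22 (9.95%) on Control. In the weakest 20% these shares were 17.5% and 14.1%. Of the 297 A/J-only regions ranked from 20 to 40%, 152 (51.2%) held a C57BL/6J peak on HF and 5 (1.68%) on Control. In the weakest 20% they were 6.92% and 7.15%. The 13 strongest A/J-only regions stood apart, since none held a C57BL/6J peak on either diet, while 16 of the 18 strongest C57BL/6J-only regions held an A/J peak on HF.

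Among the 587 C57BL/6J-only regions in the strongest 50% of their list, all held a C57BL/6J peak on Control and HF as well. Their median rank was 27.6% in the Control list, 37.6% in HF and 42.3% in Reversal. Where an A/J HF peak was present, at 326 of them, its median rank in that list was 72.8%. For 81 with an A/J Control peak it was 90.5%. These medians cover different numbers of regions in the A/J lists, and the Reversal ranks are at most 50% by the choice of regions. The order of the C57BL/6J lists was not particular to the 587. Over regions with a peak in the list, medians on Control, HF and Reversal were 33.45%, 36.42% and 39.25% for shared regions. For all C57BL/6J-only regions they were 59.7%, 70.6% and 80.0%. The part of library or list quality in these ranks was not tested. X chromosome peaks are left out of the regions described here. In C57BL/6J they numbered 1365 (3.85% of the list) on Control, 1135 (3.40%) on HF and 955 (2.92%) on Reversal. In A/J they numbered 549 (1.51%) on Control, 671 (1.98%) on HF and 534 (1.51%) on Reversal. The 963 A/J-only regions of the strongest 50% had median ranks of 44.8% on A/J Control, 54.2% on A/J HF and 43.2% on A/J Reversal. Here too the Reversal ranks are at most 50% by the choice of regions. Over regions with a peak in the list, A/J medians on Control, HF and Reversal were 33.12%, 35.58% and 35.41% for shared regions. For all A/J-only regions they were 72.24%, 78.05% and 78.03%.

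Positions are given in mm9, counted from 1. Gene names and sequences at these positions were not used here, since the reference tables are of GRCm38. The strongest A/J-only region stood far ahead of the rest. It lay on chromosome 6 from 146803351 to 146804141, ranked 175 in the A/J Reversal list (0.504%), with a signal of 2.81. It ranked at 0.958% on A/J Control and 0.521% on A/J HF, held no C57BL/6J peak on any diet, and lay 14.0 kb from a shared region.

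The next A/J-only region ranked at 7.01%, on chromosome 12 from 29379059 to 29379539. The third was a wider region of 1139 bp on chromosome 5 from 117534998 to 117536136, at 9.10%. The next 3 lay on chromosome 15 from 36885040 to 36885493, on chromosome 3 from 137875374 to 137875788 and on chromosome 10 from 21147811 to 21148249. All 6 held A/J peaks on all 3 diets, with ranks between 0.504% and 18.1%, and no C57BL/6J peak on any diet. Each lay within 16.8 kb of a shared region.

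The strongest C57BL/6J-only regions were of another kind. The first, on chromosome 2 from 56873777 to 56874232, ranked at 6.75% on Reversal, 3.67% on HF and 0.409% on Control. In A/J it ranked at 47.8% on HF and 94.3% on Control, so it missed the A/J Reversal list only. The second, on chromosome 15 from 96345815 to 96346287, went the same way, with 9.94%, 4.76% and 1.46% in C57BL/6J, and in A/J with 48.3% on HF and 90.5% on Control. A further pair, on chromosome 14 from 102959915 to 102960337 and chromosome 3 from 17285022 to 17285449, held an A/J HF peak at 51.9% and 53.9% and lay 421 and 670 kb from a shared region.

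Only 2 of the 6 strongest lacked an A/J peak on every diet. One of them, 978 bp on chromosome 11 from 101506836 to 101507813, kept nearly the same rank on all diets of C57BL/6J, at 10.6% on Control, 11.9% on HF and 10.3% on Reversal. It lay 4.40 kb from a shared region. The other, on chromosome 6 from 103264468 to 103264843, ranked at 1.43% on Control, 11.2% on HF and 10.7% on Reversal and lay 334 kb from one. The widest C57BL/6J-only region spanned 5596 bp on chromosome 12 from 8636884 to 8642479, ranked at 34.8% and had no A/J peak on any diet.

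C57BL/6J-only regions varied more between chromosomes than A/J-only regions did. Their share of a chromosome's regions ran from 13.3% (12.2 to 14.5) on chromosome 11 to 22.7% (20.9 to 24.7) on chromosome 3. Chromosome 1 followed at 21.8% (20.2 to 23.5), and chromosome 17 was second lowest at 13.6% (12.2 to 15.2). The A/J-only share ran from 22.2% (20.4 to 24.2) on chromosome 3 and 22.7% (20.9 to 24.6) on chromosome 10 to 26.9% (24.8 to 29.2) on chromosome 12 and 27.1% (25.3 to 29.0) on chromosome 6. Chromosome 3 was the one autosome with more C57BL/6J-only than A/J-only regions, 417 against 407. Shared regions ran from 53.8% on chromosome 18 and 53.9% on chromosome 13 to 61.4% on chromosome 9 and 63.5% on chromosome 11.

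The C57BL/6J-only share was high on chromosomes with few regions. Across the 19 chromosomes it had a Pearson r of -0.81 and a Spearman rho of -0.85 with the number of merged regions per Mb, which was 28.3 on chromosome 11 and 11.5 on chromosome 3. The A/J-only share had an r of -0.15 and a rho of -0.06. These are descriptions over chromosomes that share the same libraries, and the regions of each class are part of the density. Strength and width differed little between chromosomes, with median ranks from 76.2% to 83.1% for C57BL/6J-only and from 75.8% to 80.8% for A/J-only regions, and median widths from 310 to 332 bp and from 294 to 324 bp.

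**Figure D4:**
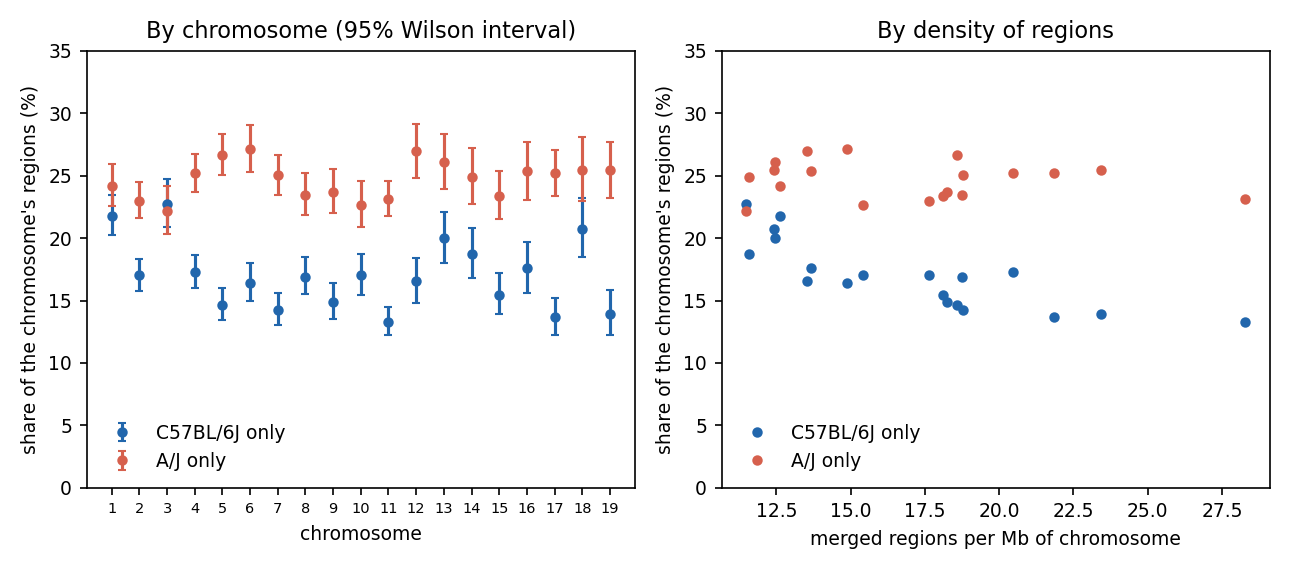
Left, share of each chromosome's merged regions that were C57BL/6J only or A/J only (percent, with 95% Wilson intervals for counting error), by chromosome. Right, the same shares against merged regions per Mb of chromosome, where the C57BL/6J-only share falls from 22.7% on chromosome 3 to 13.3% on chromosome 11 and the A/J-only share stays between 22.2% and 27.1%.

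Strain-only regions also lay next to their own kind. After a C57BL/6J-only region the next region along the chromosome was C57BL/6J only in 31.6% (30.5 to 32.7) of cases, against 16.7% over all regions. After an A/J-only region the next was A/J only in 30.4% (29.6 to 31.3), against 24.6%. Rows of at least 8 C57BL/6J-only regions with no other region between them were found 29 times, holding 328 regions. Such rows of A/J-only regions were found 5 times, holding 45.

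The longest row was 28 C57BL/6J-only regions within 178 kb of chromosome 1, from 85144093 to 85322547. Another row of 13 lay just before it, from 84978303 to 85108561. In the window of 1 Mb that starts at 85 Mb of chromosome 1, 41 of 43 regions were C57BL/6J only, none was A/J only and 2 were shared. The contrast held on the other diets: the window had 64, 47 and 43 C57BL/6J peaks on Control, HF and Reversal, and 7, 15 and 2 A/J peaks. No member was strong, with a best rank of 45.5% and a median of 75.1%, and the median width was 421 bp.

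The second and the third longest rows of C57BL/6J-only regions covered far more of the genome. A row of 22 ran over 6988 kb of chromosome 14, from 88084193 to 95071968, and a row of 17 over 3570 kb of chromosome 1, from 100475437 to 104045178. A C57BL/6J peak on Control was present at 20 of the 22 and at 16 of the 17, and an A/J peak on HF at 3 of each. Windows with high C57BL/6J-only shares after that on chromosome 1 lay on chromosome 4, where 9 of 12 regions from 60 to 61 Mb and 10 of 14 regions from 145 to 146 Mb were C57BL/6J only. In the first of these the C57BL/6J lists held 7, 14 and 10 peaks on Control, HF and Reversal and the A/J lists held 1, 0 and 3.

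A/J-only rows were shorter. The longest was 11 regions over 138 kb of chromosome 12, from 104965861 to 105104162, and in the window from 105 to 106 Mb of that chromosome 24 of 34 regions were A/J only. A/J peaks there numbered 31, 26 and 32 on Control, HF and Reversal against 8, 10 and 10 C57BL/6J peaks. Among the 4 longest, the row with the shortest span was 8 regions within 12.9 kb of chromosome 7, from 38970194 to 38983114. All 8 held A/J peaks on Control and HF and none held a C57BL/6J peak on either diet. Their median width was 616 bp, and they included the widest A/J-only region, 1981 bp from 38978944 to 38980924. The highest A/J-only share of a window, 9 of 12 regions, lay from 117 to 118 Mb of chromosome 8. There the A/J lists held 12, 11 and 12 peaks and the C57BL/6J lists 2, 3 and 3. Windows in which more than 50% of at least 10 regions were A/J only numbered 27 of 1207, and 12 were C57BL/6J only to that degree.

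Within shared regions the peaks of both strains lay close together, which the merging favours, since it takes only peaks that overlap. Peaks placed apart counted as strain-only, so this closeness is no separate result. A single peak of each strain made up 23332 of the 24215, or 96.4%, while 337 paired 1 C57BL/6J peak with several A/J peaks and 509 the reverse. Over the single pairs the summits lay a median of 8 bp apart (quartiles 3 and 17), and 93.4% were within 50 bp. In 728 pairs, 3.12%, they were over 200 bp apart. Only 10 pairs shared less than 50% of the shorter peak. The A/J peak was the wider one in 72.3% of pairs, with a median ratio of A/J to C57BL/6J width of 1.08 (quartiles 0.989 and 1.23).

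Ranks of shared regions ran together, with a Spearman rho of 0.85 over these pairs, given as a description. The median absolute rank difference was 7.05 percentage points. The strongest 10% of both lists held 2602 pairs in common, which is 87.3% of the 2982 in that part of the C57BL/6J list and 79.7% of the 3266 in that part of the A/J list. The first in both lists together lay on chromosome 4 from 79648071 to 79651294, ranked 2 in each. Differences over 50 points were found for 113 pairs stronger in C57BL/6J and 245 stronger in A/J.

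The largest rank differences among shared regions had the same direction on the other diets. On chromosome 12 from 100982367 to 100982776, the rank was 17.0% in C57BL/6J and 98.4% in A/J on Reversal, and it was 6.31% and 97.8% on Control and 14.8% and 52.0% on HF. On the A/J side, the region on chromosome 6 from 18795615 to 18796181 ranked at 14.0% in A/J and 87.7% in C57BL/6J, with 17.9% and 84.0% on Control and 19.4% and 71.3% on HF. The widest shared region, 38453 bp on chromosome 9 from 3000001 to 3038453, lay at the first assembled bases of that chromosome and ranked within the first 0.0662% of both lists. No filter for repeated sequence was applied to the lists here, so the strongest and widest regions may include such sequence.

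**Figure D5:**
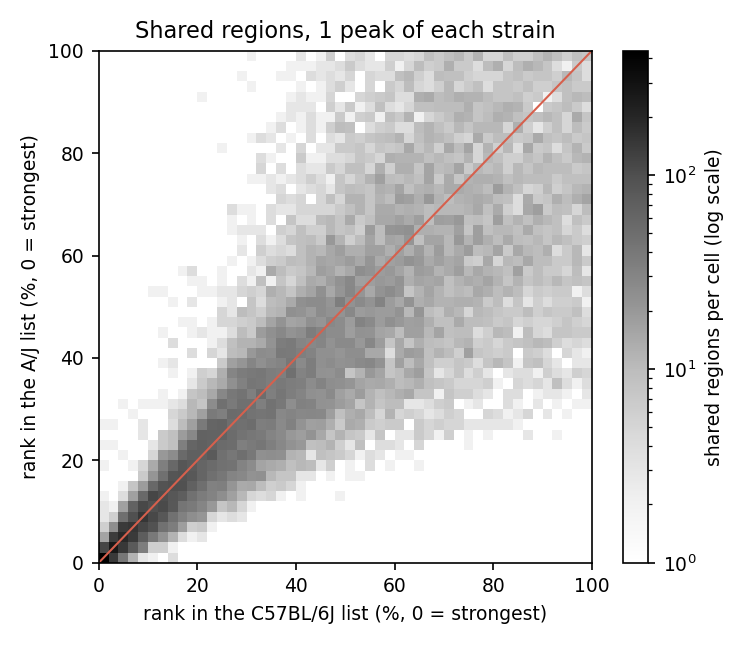
Rank in the C57BL/6J Reversal list (horizontal axis) against rank in the A/J Reversal list (vertical axis), both in percent with the strongest at 0, for the 23332 shared regions with 1 peak of each strain. Grey shows the number of regions per cell of the grid on a log scale, the red line marks equal ranks, and the regions lie close to it among strong peaks and spread among weak ones.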

How the data were processed

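FAIRE-seq of liver was used from the C57BL/6J and A/J Reversal groups, with the Control and HF groups for comparison. The submitters' processing notes name mm9 and Bowtie2, with no version. Neither a peak caller nor pooling of libraries nor sequencing depth is given in the sources used here. Deposited lists have no header, and in their columns stand a position, a signal per peak and a summit. This deposited signal is the authors' own value. Strain and diet of each list come from its name.

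Peaks on chromosomes 1 to 19 were merged in Python 3.11.15 with pandas 2.3.3 where they shared 1 bp. The code was tested on simulated peaks. Ranks were computed among the peaks of these chromosomes, and the best rank stood for a region with several peaks. Windows of 1 Mb needed at least 10 regions. Named regions were the strongest and widest of each class, those with the largest rank differences, and the windows and chromosomes with extreme shares. The rows of regions, the distances and the 100 kb limit lie outside that rule and were chosen after the values were seen. The members, lists and measures were chosen with earlier results of these data known. Expression tables were not used here.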

Additional observations from a re-analysis of the deposited data

How the results depend on the processing

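Each of the 7 shares and median ranks was recomputed under 6 alternatives, and 18 of the 42 values stayed within the counting interval of the reported one. Asking for 50% of the shorter peak to be shared left all 7 within it. With peaks within 200 bp joined, the shared regions were 59.3% of all and the A/J-only regions 28.9% of A/J regions. With all chromosomes, the C57BL/6J-only share was 23.2% and the median rank of C57BL/6J-only peaks 79.4%. With each peak cut to the 200 bp around its summit, the shared regions were 54.7%, the C57BL/6J-only share 25.9% and the A/J-only share 32.4%, with median ranks of 77.6% and 76.5%, and 18.8% of A/J-only regions held a C57BL/6J peak on Control or HF.

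The remaining alternatives shorten the lists. With the strongest 20000 peaks of each Reversal list, 67.9% of regions were shared, 18.9% of C57BL/6J and 19.4% of A/J regions were strain-only, and their median ranks within the shortened lists were 83.2% and 82.3%. The other strain on Control or HF then held 79.1% of C57BL/6J-only and 62.5% of A/J-only regions. Only the Reversal lists were shortened, while the Control and HF lists stayed whole. A region whose partner ranked past 20000 on Reversal counted as strain-only, which raises these shares by construction. With peaks of the stronger 50% of a list set against the whole other list, 91.99% were shared, 3.75% and 5.57% were strain-only with median ranks of 42.3% and 43.2%, and 56.6% and 39.8% of those held a peak of the other strain on Control or HF. Fewer weak peaks enter under both settings by construction. The share without a partner was higher in A/J than in C57BL/6J under all 6 alternatives, within overlapping intervals for the strongest 20000 peaks. Except with the stronger 50% of a list, both strains have the same shared regions in a setting. The strain with more regions then has the higher share by construction, so this order is no separate result. No paired analysis was possible because the 2 libraries of a group share 1 list and no test was run. Sequencing depth is unknown, so it was not possible to say how much of a missing peak is depth.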
